A study of Mus musculus with 14 samples.

Results

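Neutrophil granule genes were examined in cultured mouse macrophages. The 10 genes were taken by name in 3 sets according to where the protein is stored, and their probes were found through the RefSeq accessions printed in the array files. Mpo, Elane, Prtn3 and Ctsg encode proteins of primary (azurophil) granules, Ltf, Ngp, Camp and Lcn2 encode proteins of secondary (specific) granules, and S100a8 and S100a9 encode the cytosolic S100 proteins. All 10 were on the arrays, with 11 probes in all (2 for Camp), and all 10 passed the filter on dim probes, among 15834 genes tested.

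Granulocyte precursors fill their granules in order of appearance. Primary granule proteins are made at the promyelocyte stage, while the cells still divide, and secondary granule proteins are made later, at the myelocyte and metamyelocyte stages, under transcription factors such as C/EBP epsilon. Mature neutrophils carry the proteins but make little new granule mRNA, and macrophages grown with M-CSF are not their usual source. Lcn2, S100a8 and S100a9 are exceptions, since inflamed macrophages and other cells are known to express them too.

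The cells were bone marrow-derived macrophages of female C57BL/6 mice aged 8 weeks, grown with recombinant M-CSF and replated for a treatment of 24 h. The groups were LysM-Double-Cre x TFEB transgene+ cells (transgenic) given tumour material (3 arrays of 2 replicates), transgenic cells in DMEM only (control, 3 arrays of 3 replicates), LysM-Double-Cre x TFEB transgene- cells (wild-type) given tumour material (4 arrays of 3 replicates) and wild-type cells in DMEM only (4 arrays of 3 replicates). Tumour material was serum-free DMEM conditioned by EO771 mammary tumour cells, with lysate of the tumour added. Both genotypes carry the Cre recombinase, so the wild-type cells lack only the transgene for TFEB, a transcription factor of lysosomal and autophagy genes. As background, the LysM promoter is active in neutrophils and monocytes as well as in macrophages. The labels call the replicates biological and do not say whether each is a separate animal, so p-values measure the spread between these samples. Transgenic tumour replicate 1 is not analysed here.

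In control medium the 2 kinds of granule genes lay on opposite sides of wild-type in transgenic replicates 2 and 3, and on the same side in replicate 1. Promoters are shown first for 2 primary granule genes and 3 secondary ones. Each runs from 250 bases before to 50 bases after the annotated start, 5′ to 3′ on the strand of the gene, as given by RefSeq for GRCm38.p6: chr11:87793534-87793833 (Mpo, plus strand), chr10:79886062-79886361 (Elane, plus strand), chr9:111019042-111019341 (Ltf, plus strand), chr9:110419558-110419857 (Ngp, plus strand) and chr2:32387690-32387989 (Lcn2, minus strand). Capitals mark matches on either strand to the letters GAGGAA (PU.1), TTGCNNAA (C/EBP) or TGTGGT (RUNX), 3 families of factors of myeloid cells, and no matches overlap.
Mpo: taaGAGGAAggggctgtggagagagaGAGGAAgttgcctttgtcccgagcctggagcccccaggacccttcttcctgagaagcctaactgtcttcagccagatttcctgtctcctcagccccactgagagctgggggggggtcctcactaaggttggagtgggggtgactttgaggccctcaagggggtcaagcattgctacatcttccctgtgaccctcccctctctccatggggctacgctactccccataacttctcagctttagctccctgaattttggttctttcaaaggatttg
Elane: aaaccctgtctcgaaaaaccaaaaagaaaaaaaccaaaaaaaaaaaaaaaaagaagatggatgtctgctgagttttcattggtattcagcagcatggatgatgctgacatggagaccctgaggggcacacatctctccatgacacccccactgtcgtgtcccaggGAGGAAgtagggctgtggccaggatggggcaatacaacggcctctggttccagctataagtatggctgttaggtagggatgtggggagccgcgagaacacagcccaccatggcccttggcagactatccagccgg
Ltf: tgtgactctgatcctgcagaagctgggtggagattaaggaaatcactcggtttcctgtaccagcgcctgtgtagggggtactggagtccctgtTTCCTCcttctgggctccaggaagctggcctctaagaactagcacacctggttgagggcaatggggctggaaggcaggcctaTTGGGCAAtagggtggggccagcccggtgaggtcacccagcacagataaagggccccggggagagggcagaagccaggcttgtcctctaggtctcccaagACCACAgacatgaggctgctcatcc
Ngp: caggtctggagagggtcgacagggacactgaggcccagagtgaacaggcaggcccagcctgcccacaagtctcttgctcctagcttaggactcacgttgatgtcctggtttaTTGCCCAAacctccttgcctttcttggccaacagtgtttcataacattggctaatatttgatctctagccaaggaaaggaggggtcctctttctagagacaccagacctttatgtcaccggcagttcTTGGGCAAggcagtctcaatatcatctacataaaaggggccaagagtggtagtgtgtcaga
Lcn2: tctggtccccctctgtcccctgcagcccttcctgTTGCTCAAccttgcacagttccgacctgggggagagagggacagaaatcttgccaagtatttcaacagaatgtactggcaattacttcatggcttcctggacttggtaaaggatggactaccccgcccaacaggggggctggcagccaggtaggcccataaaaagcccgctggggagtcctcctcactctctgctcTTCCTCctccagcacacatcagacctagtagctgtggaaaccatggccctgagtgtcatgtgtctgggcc

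The PU.1 letters occurred in 7 of the 10 members' promoters, including all 4 primary granule genes, against 28.3% of the 32851 promoters of the same length. The C/EBP letters occurred in 4 of 10 (Ltf, Ngp, Lcn2 and S100a9), 0 of them a primary granule gene, against 10.8% of all promoters. In Ltf the match starts at position −75 from the gene's start, in Ngp at −138 and −11, and in Lcn2 at −216. The RUNX letters occurred in Ctsg, Ltf and S100a9, against 16.8% of all promoters. The E-box CACGTG, part of the element through which TFEB binds, was in 0 of the 10 windows, against 7.15% of all, and a motif of NF-kB was in 0 of 10, against 1.63%. These are matches of letters in a short window and show no binding. Prtn3 and Elane are neighbours on chromosome 10, and S100a8 and S100a9 are neighbours on chromosome 3.

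Levels are log2 of a spot's signal over the 75th percentile of its array, so 0 is the level of the 75th percentile, and they compare groups for 1 probe, not genes with each other. Between 35.5% and 40.2% of spots per array lay well above background, and 0 were saturated. The macrophage label was borne out by 16 of 18 macrophage marker genes above background on all arrays of every group, with Adgre1 at 7.48 to 9.28 and Csf1r at 8.18 to 8.59. Cd163 was not well above background on any array, and Lyz2, a macrophage lysozyme, was above it on 4 of 14. Transgenic control replicate 1 stood apart: it correlated with replicates 2 and 3 of its group at 0.959 and 0.957 over all genes tested. Those correlated at 0.981 with each other. Arrays within each other group, repeat arrays included, correlated at 0.979 to 0.994. Transgenic control replicates 1 and 2 and a repeat array of transgenic tumour replicate 3 lay in slide column 4, where the scanner software applied a larger spatial correction (root mean square 0.253 to 0.331, against 0.0964 to 0.126 elsewhere). Calls that change without these arrays are given with the results; that fit keeps 1 transgenic control replicate, which is assumed to vary like the other groups. The model carried a term for the 2 slides. Each adjusted p is from limma over all genes, with 0.05 as the threshold for a call.

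**Figure D1:**
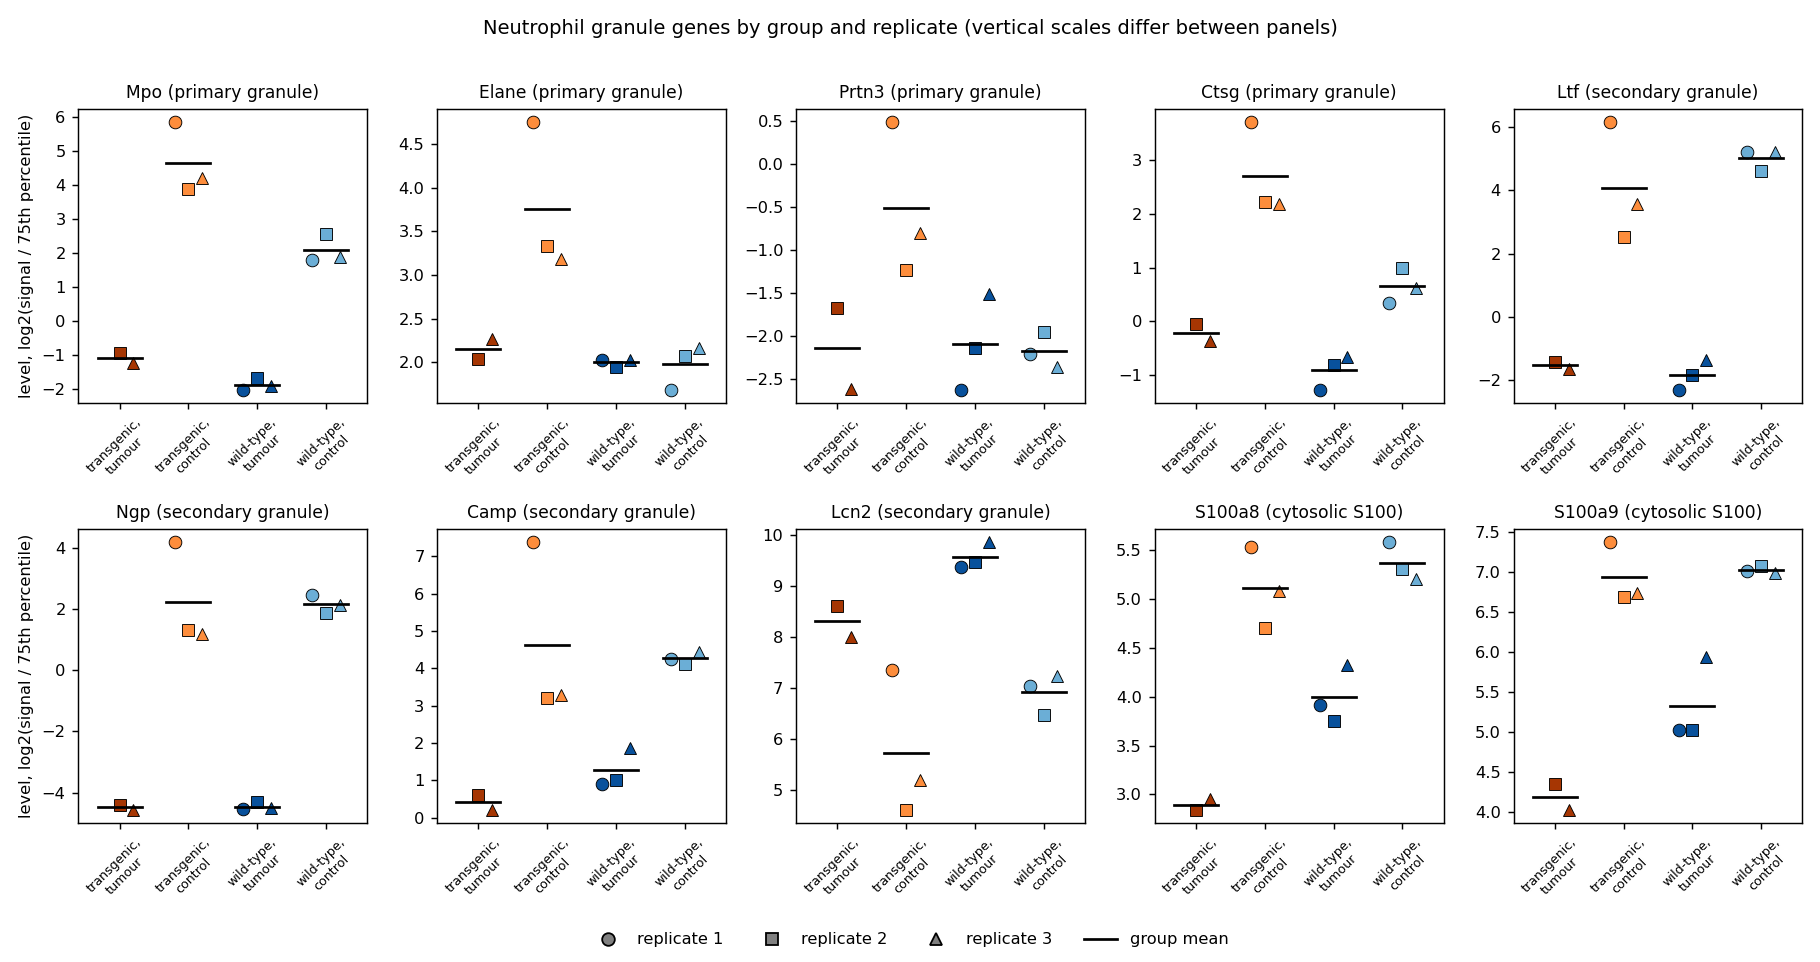
Levels of the 10 granule genes, on the log2 scale relative to the 75th percentile of each array, in each replicate of the 4 groups; points are replicates (repeat arrays averaged), marked by replicate number, and black bars are group means. Transgenic control replicate 1 is the highest point of its group in every panel, from 0.49 for Prtn3 to 7.39 for Camp.

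Tumour material lowered most of the granule genes and raised Lcn2. In wild-type macrophages 7 of the 10 members were lower (16.8% of all genes were called lower) and 1 was higher (23.2% of all genes). In transgenic macrophages 9 were lower (10.2% of all genes) and 1 was higher (15.1%). The median log2 change of the 10 genes was −2.78 in transgenic macrophages, where that of all genes was 0.06, and −1.53 in wild-type macrophages, where that of all genes was 0.05. Replicates with and without tumour material did not overlap for 9 lower members (21.1% of all genes) and 1 higher member (29.5%) in transgenic macrophages, and for 7 lower (25.6%) and 1 higher (32.4%) in wild-type ones. In bulk RNA, fewer cells of a type and less RNA per cell cannot be told apart.

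Mpo, the peroxidase that makes hypochlorous acid, changed most among the primary granule genes. Its level was −0.92 and −1.24 in transgenic tumour replicates 2 and 3, against 5.85, 3.88 and 4.22 in transgenic control replicates 1, 2 and 3. In wild-type macrophages it was −2.01, −1.67 and −1.91 with tumour material, against 1.80, 2.55 and 1.90 in control. The treated and control replicates did not overlap in either genotype. The log2 change was −5.62 in transgenic macrophages (SE 0.46, adjusted p = 5.24e-06, 49.2-fold lower) and −3.92 in wild-type macrophages (SE 0.35, adjusted p = 4.70e-06, 15.1-fold lower). The change in transgenic macrophages was −5.21 when transgenic control replicate 1 was left out.

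Ctsg, the granule serine protease cathepsin G, moved the same way. It stood at −0.06 and −0.38 in transgenic tumour replicates 2 and 3, against 3.72, 2.22 and 2.19 in transgenic control replicates 1, 2 and 3. The wild-type levels were −1.28, −0.81 and −0.67 with tumour material, against 0.33, 1.0 and 0.62 in control. Again the replicates did not overlap. Ctsg fell by 2.74 on the log2 scale in transgenic macrophages (SE 0.40, adjusted p = 0.000405) and by 1.51 in wild-type macrophages (a change of −1.51, SE 0.31, adjusted p = 0.00214).

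Elane (neutrophil elastase) and Prtn3 (proteinase 3), the neighbouring protease genes, were lower with tumour material in transgenic macrophages and were not called in wild-type ones. Elane was at 2.03 and 2.27 in transgenic tumour replicates 2 and 3, against 4.75, 3.34 and 3.19 in transgenic control replicates 1, 2 and 3. In wild-type macrophages it was at 2.03, 1.95 and 2.03 with tumour material, against 1.69, 2.07 and 2.17 in control, and these ranges overlap. The log2 change of Elane was −1.56 in transgenic macrophages (SE 0.39, adjusted p = 0.0115; adjusted p = 0.0556 without transgenic tumour replicate 3) and −0.01 in wild-type macrophages (SE 0.30, adjusted p = 0.983).

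Prtn3 lay near background in much of the data. Its level was −1.67 and −2.61 in transgenic tumour replicates 2 and 3, against 0.49, −1.23 and −0.80 in transgenic control replicates 1, 2 and 3. Wild-type levels were −2.63, −2.13 and −1.52 with tumour material, against −2.21, −1.96 and −2.36 in control. It was well above background on 2 of 3 transgenic tumour arrays, 3 of 3 transgenic control arrays, 2 of 4 wild-type tumour arrays and 3 of 4 wild-type control arrays. It thus passed the filter on dim probes through the transgenic control group alone, the group where it was highest. Without that filter 3 of the 4 primary granule genes were called lower with tumour material in transgenic macrophages. The log2 change was −1.92 in transgenic macrophages (SE 0.55, adjusted p = 0.0229) and 0.25 in wild-type macrophages (SE 0.42, adjusted p = 0.666). The call in transgenic macrophages is lost without transgenic tumour replicate 3 (−1.40, adjusted p = 0.184) or wild-type tumour replicate 3 (−1.71, adjusted p = 0.0598), and without the arrays of slide column 4 (−1.09, adjusted p = 0.0599).

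Of the secondary granule genes, Ltf, Ngp and Camp fell in both genotypes and Lcn2 rose. Ltf, which encodes the iron-binding protein lactoferrin, was at −1.43 and −1.65 in transgenic tumour replicates 2 and 3, against 6.17, 2.53 and 3.56 in transgenic control replicates 1, 2 and 3. Its wild-type levels were −2.31, −1.84 and −1.36 with tumour material, against 5.21, 4.62 and 5.20 in control. The gap between the treated and control replicates was wide in both genotypes. With tumour material Ltf was well above background on 3 of 3 transgenic and 3 of 4 wild-type arrays. The log2 change was −5.52 in transgenic macrophages (SE 0.80, adjusted p = 0.000382; −4.83 without transgenic control replicate 1) and −6.79 in wild-type macrophages (SE 0.61, adjusted p = 5.24e-06).

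Ngp encodes neutrophilic granule protein, a relative of the cathelicidins. With tumour material it was not well above background on any of the 7 arrays, with measured levels of −4.40 and −4.56 in transgenic replicates 2 and 3, and −4.53, −4.31 and −4.51 in wild-type replicates 1, 2 and 3. In control medium it was at 4.19, 1.33 and 1.19 in transgenic replicates 1, 2 and 3, and at 2.47, 1.86 and 2.11 in wild-type replicates 1, 2 and 3. The dimmest signal well above background on each array, or that of Ngp itself where it was higher, was taken as a limit. Against this limit Ngp was 39.1-fold lower with tumour material in transgenic macrophages and 32.9-fold lower in wild-type macrophages. When transgenic control replicate 1 was left out, the fold in transgenic macrophages was 19.9. These folds are not strict bounds, since some spots above the limit were not well above background. Examples are Ltf at −2.31 and Prtn3 at −2.13 in wild-type tumour replicates 1 and 2, where the limit averaged −2.89 over the group. The adjusted p from limma (2.65e-05 in transgenic, 1.12e-06 in wild-type macrophages) is for the measured levels, not for these folds.

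Camp encodes the cathelicidin antimicrobial peptide precursor. It was at 0.61 and 0.21 in transgenic tumour replicates 2 and 3, against 7.39, 3.21 and 3.28 in transgenic control replicates 1, 2 and 3. Wild-type levels were 0.90, 1.02 and 1.88 with tumour material, against 4.25, 4.11 and 4.43 in control. Treated and control replicates did not overlap. The log2 change was −4.05 in transgenic macrophages (SE 0.97, adjusted p = 0.00946). It was −3.11 (adjusted p = 1.52e-05) without transgenic control replicate 1, and −3.91 (adjusted p = 0.0884) without transgenic tumour replicate 3. In wild-type macrophages it was −2.90 (SE 0.74, adjusted p = 0.00845; −2.53 and adjusted p = 0.0794 without wild-type control replicate 3). The second probe of Camp ran lower by a similar amount in every group and showed the same order, with means of −1.12 (SD 0.23, n = 2) in transgenic tumour, 2.99 (SD 2.36, n = 3) in transgenic control, −0.19 (SD 0.44, n = 3) in wild-type tumour and 2.80 (SD 0.04, n = 3) in wild-type control replicates.

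Lcn2 encodes lipocalin 2, which binds bacterial siderophores and is also induced in macrophages and epithelia by inflammatory cytokines. It was the 1 member that rose. Its level was 8.61 and 8.01 in transgenic tumour replicates 2 and 3, against 7.35, 4.62 and 5.21 in transgenic control replicates 1, 2 and 3. The wild-type levels were 9.38, 9.47 and 9.87 with tumour material, against 7.05, 6.47 and 7.24 in control. All treated replicates lay above all control replicates of both genotypes. The log2 change was 2.51 in transgenic macrophages (SE 0.64, adjusted p = 0.013, 5.69-fold; 1.86 and adjusted p = 0.150 without transgenic control replicate 3) and 2.65 in wild-type macrophages (SE 0.49, adjusted p = 0.00112, 6.27-fold).

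S100a8 and S100a9 encode the subunits of calprotectin, a calcium- and zinc-binding heterodimer abundant in the cytosol of neutrophils and young monocytes. S100a8 was at 2.84 and 2.95 in transgenic tumour replicates 2 and 3, against 5.54, 4.71 and 5.08 in transgenic control replicates 1, 2 and 3. In wild-type macrophages it was at 3.92, 3.75 and 4.32 with tumour material, against 5.58, 5.31 and 5.20 in control. The treated replicates were below the control ones in both genotypes, by a log2 change of −2.19 in transgenic (SE 0.26, adjusted p = 8.24e-05) and −1.26 in wild-type macrophages (SE 0.20, adjusted p = 0.000334).

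S100a9 followed S100a8 closely. It was at 4.35 and 4.03 in transgenic tumour replicates 2 and 3, against 7.37, 6.69 and 6.73 in transgenic control replicates 1, 2 and 3. The wild-type levels were 5.03, 5.03 and 5.93 with tumour material, against 7.01, 7.07 and 6.99 in control. The log2 change was −2.83 in transgenic macrophages (SE 0.33, adjusted p = 8.81e-05) and −1.55 in wild-type macrophages (SE 0.25, adjusted p = 0.000502). Over the 11 replicates the levels of the 2 genes had a Pearson correlation of 0.982, a description of points that share the 4 groups.

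**Figure D2:**
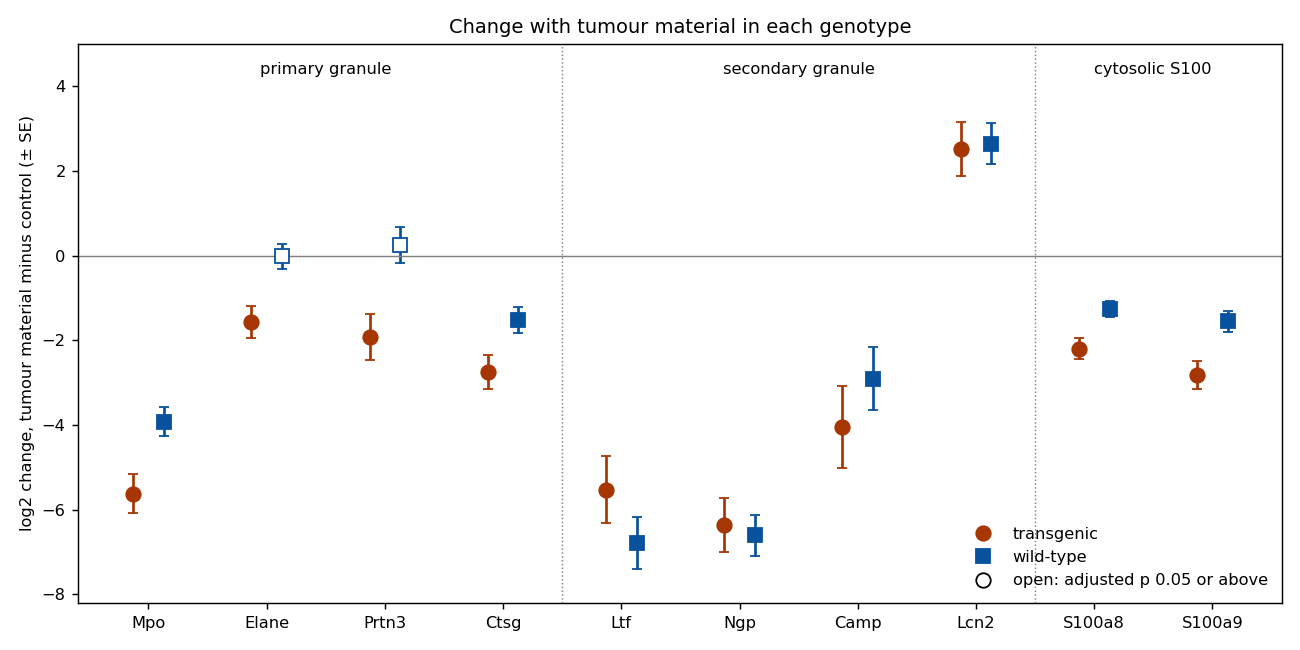
Log2 change with tumour material (tumour material minus control, with the SE of the fit) for each granule gene, transgenic macrophages left and wild-type right in each pair; filled points are called. Lcn2 lies above 0 in both genotypes, at 2.51 and 2.65, and Elane and Prtn3 are the genes not called in wild-type macrophages.

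Within single slides the wild-type changes kept their direction for the called genes. In slide 2 and slide 1, Mpo changed by −3.66 and −4.0, Ltf by −6.80 and −6.77, Camp by −2.50 and −3.02, and S100a8 by −0.80 and −1.40. The wild-type arrays of slide 2 are repeat arrays of replicate 3. The first arrays of that replicate lie in slide 1, so slide 2 adds no other wild-type replicate. Only slide 2 holds transgenic tumour arrays. Within it the changes in transgenic macrophages were −5.35 for Mpo, −5.14 for Ltf, −2.94 for Camp, 3.00 for Lcn2 and −2.17 for S100a8. These rest on 1 transgenic control array, of replicate 3, and on 3 tumour arrays of 2 replicates fitted as separate samples. All 10 members were, without transgenic control replicate 1, still called in transgenic macrophages, 9 lower (14.4% of all genes) and 1 higher (19%).

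In control medium the transgene went with higher primary granule genes. All 4 were called higher in transgenic than in wild-type macrophages (3.59% of all genes were called higher), and 0 of the 10 members were called lower (5.24% of all genes). Prtn3 passed the filter on dim probes only through the transgenic control group, so its place in these counts is not independent of its level there. Without that filter 3 of the 4 were called higher. Mpo averaged 4.65 ± 1.05 in transgenic and 2.08 ± 0.40 in wild-type control replicates (SD, n = 3 each), a log2 difference of 2.63 (SE 0.37, adjusted p = 0.00138, 6.17-fold). Ctsg averaged 2.71 ± 0.87 in transgenic and 0.65 ± 0.33 in wild-type replicates, a difference of 2.10 (SE 0.33, adjusted p = 0.00239). Elane averaged 3.76 ± 0.86 in transgenic and 1.98 ± 0.26 in wild-type replicates, a difference of 1.74 (SE 0.32, adjusted p = 0.00614). Every transgenic control replicate lay above every wild-type control replicate for each of the 4 primary granule genes, while 8.96% of all genes were higher without overlap; 0 members were lower without overlap (12.5% of all genes).

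Prtn3 averaged −0.52 ± 0.90 in transgenic and −2.18 ± 0.20 in wild-type control replicates (SD, n = 3 each), a log2 difference of 1.68 (SE 0.45, adjusted p = 0.0386). This call is lost when transgenic control replicate 1, transgenic tumour replicate 3, any single wild-type control replicate, or wild-type tumour replicate 1 or 2 is left out, with adjusted p between 0.0502 and 0.229 and differences between 1.11 and 1.79. It is also lost without the arrays of slide column 4 (0.99, adjusted p = 0.157). Within slide 2, where 1 array stands for each control group, the differences of Mpo, Elane, Prtn3 and Ctsg were 2.35, 0.86, 1.30 and 1.79. Within slide 1 they were 2.77, 2.12, 1.89 and 2.25.

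No secondary granule gene and neither S100 gene was called in control medium with all replicates. The log2 differences, transgenic minus wild-type, were −0.95 for Ltf (SE 0.66, adjusted p = 0.404), 0.15 for Ngp (SE 0.53, adjusted p = 0.898), 0.35 for Camp (SE 0.80, adjusted p = 0.833) and −1.26 for Lcn2 (SE 0.52, adjusted p = 0.160). Without the arrays of slide column 4, Lcn2 was called lower (−1.83, adjusted p = 0.00967). For S100a8 the difference was −0.22 (SE 0.21, adjusted p = 0.563) and for S100a9 −0.09 (SE 0.27, adjusted p = 0.880). The means hide a split within the transgenic group. Camp, for example, was at 7.39 in transgenic control replicate 1 and at 3.21 and 3.28 in replicates 2 and 3, on either side of the wild-type range of 4.11 to 4.43.

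Relative to the wild-type control mean, replicate 1 was above and replicates 2 and 3 were below for all 4 secondary granule genes. Ltf differed from it by 1.15 in replicate 1, −2.48 in replicate 2 and −1.45 in replicate 3. For Ngp the values were 2.04, −0.82 and −0.95, for Camp 3.12, −1.06 and −0.98, and for Lcn2 0.44, −2.30 and −1.71. Replicates 2 and 3 both lay below all wild-type control replicates for the 4 secondary granule genes and the 2 S100 genes (22% of all genes did), and both lay above them for the 4 primary granule genes (16.6% of all genes did). So the primary and secondary genes stood on opposite sides of wild-type in replicates 2 and 3, and on the same side in replicate 1.

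**Figure D3:**
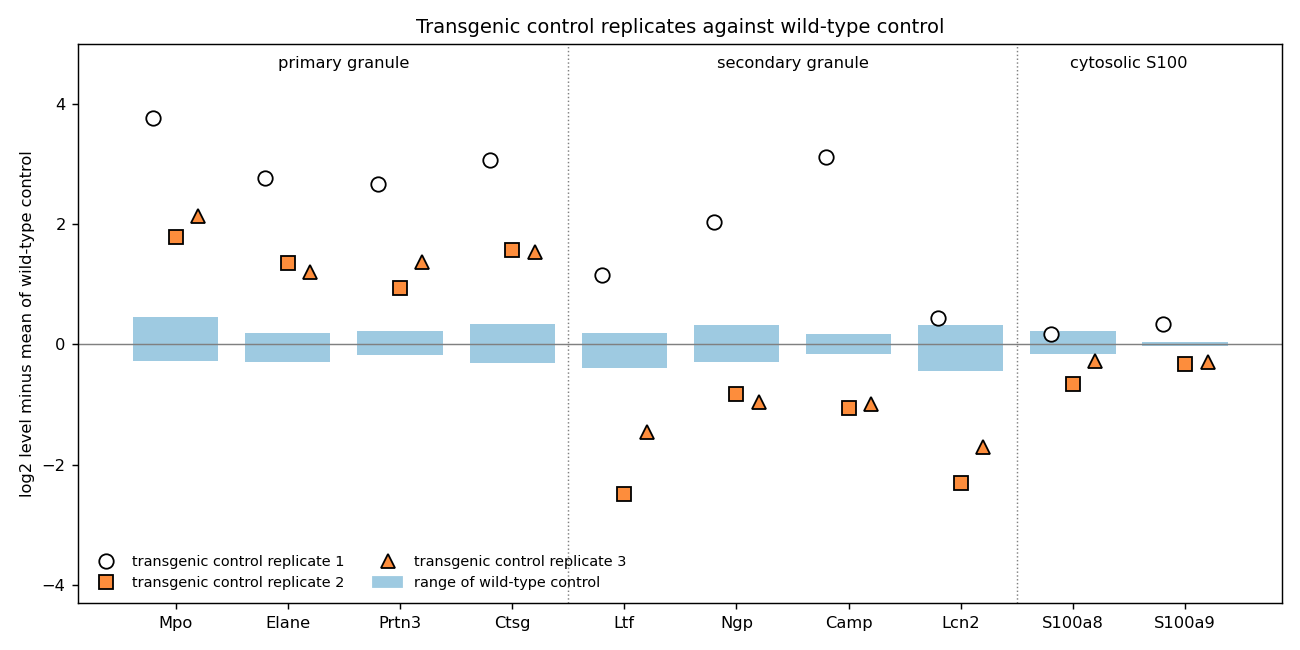
Level of each granule gene in transgenic control replicates 1 (open circle), 2 (square) and 3 (triangle), as the log2 difference from the wild-type control mean; blue bars give the range of the 3 wild-type control replicates. Squares and triangles lie above the bars for the primary granule genes and below them for the secondary granule and S100 genes, with Lcn2 at −2.30 and −1.71.

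Replicate 1 exceeded the mean of replicates 2 and 3 by 1.49 to 1.80 on the log2 scale for the primary granule genes (median 1.51) and by 2.44 to 4.14 for the secondary ones (median 3.02). As a fold this was 17.7 for Camp, 8.70 for Ltf, 7.60 for Ngp and 5.43 for Lcn2. The S100 genes differed by less, with a median of 0.65. Over all genes tested the median was −0.00, and 6.69% exceeded 1.

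The shift extended to other genes of late granulocytes, and to some genes of other lists. Replicate 1 exceeded the mean of replicates 2 and 3 by over 1 for 12 of 15 other secondary and tertiary granule genes and for 11 of 14 neutrophil surface and late genes, among them Csf3r, the G-CSF receptor, at 7.65 against 6.01 and 6.04. Cebpe, the factor of secondary granule genes, was at 3.99 in replicate 1 and at 1.81 and 1.77 in replicates 2 and 3, where wild-type controls spanned 1.66 to 1.90. Gfi1, a repressor needed for granulocyte maturation, was at 1.04 in replicate 1 and at −1.23 and −1.05 in replicates 2 and 3, where wild-type controls spanned −1.44 to −1.22. Of 9 granulocyte transcription factors, 5 were higher by over 1 in replicate 1. So were 3 of 8 granulocyte-monocyte progenitor genes, while 2 of these were lower by over 1. Among eosinophil, basophil and mast cell markers 2 of 6 were higher and 1 lower by over 1. Among macrophage markers 1 of 16 was higher and 1 lower by over 1 in replicate 1.

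Other cell programmes differed in the same library. Summed signal of the MHC class II and dendritic cell list, relative to the 75th percentile, was 46.4 in replicate 1 and 330 and 380 in replicates 2 and 3, where wild-type controls spanned 643 to 657. H2-Aa, a class II chain, was at −0.08 in replicate 1, against 3.92 and 3.98 in replicates 2 and 3. The summed neutrophil surface and late list was 360 in replicate 1 and 87.8 and 93.6 in replicates 2 and 3, with wild-type controls at 164 to 200. The proliferation list summed to 32.9 in replicate 1 and to 78.5 and 72.8 in replicates 2 and 3, with wild-type controls at 11.8 to 13.8. The part of these cell populations, of the slide column or of the library itself in the granule gene values was not tested.

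**Figure D4:**
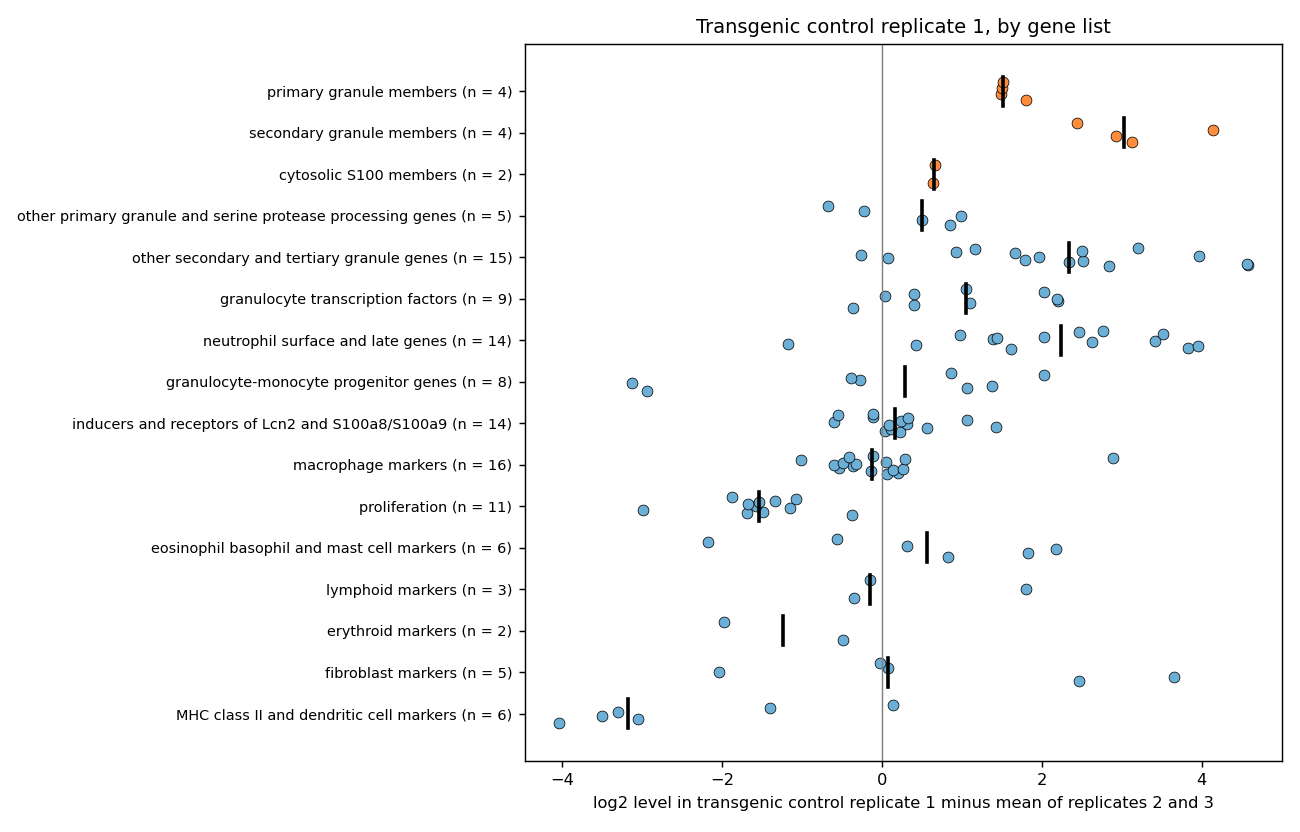
Log2 level in transgenic control replicate 1 minus the mean of replicates 2 and 3 for every tested gene of each list; points are genes, black bars are list medians, and orange marks the 10 granule genes. The medians are 3.02 for the secondary granule members, 2.34 for other secondary and tertiary granule genes, −1.54 for proliferation and −3.18 for MHC class II and dendritic cell markers.

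Without transgenic control replicate 1, 7 members were called in control medium: 3 primary granule genes were higher (7.55% of all genes) and all 4 secondary granule genes were lower (9.56% of all genes). The consensus correlation of repeat arrays was −0.207 in this fit, so its SEs may be too small. Mpo differed by 2.02 (SE 0.22, adjusted p = 0.00011), Ctsg by 1.58 (SE 0.24, adjusted p = 0.00103) and Elane by 1.17 (SE 0.16, adjusted p = 0.000545), while Prtn3, at 1.11, was not called. Lcn2 differed by −2.21 (SE 0.27, adjusted p = 0.000258) and Ltf by −2.12 (SE 0.34, adjusted p = 0.00178). Camp, at −1.16 (SE 0.27, adjusted p = 0.013), and Ngp, at −0.85 (SE 0.15, adjusted p = 0.00347), turned from small positive differences to called negative ones. S100a8 (−0.44, adjusted p = 0.154) and S100a9 (−0.35, adjusted p = 0.437) were not called. Within slide 2, which holds neither replicate 1 nor 2, the differences were −2.05 for Lcn2, −1.57 for Ltf, −1.13 for Camp and −0.83 for Ngp. Within slide 1 they were −0.92, −0.69, 1.02 and 0.58.

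With tumour material the transgenic and wild-type macrophages differed in the S100 genes. S100a8 averaged 2.90 ± 0.08 (SD, n = 2) in transgenic and 4.0 ± 0.29 (SD, n = 3) in wild-type macrophages, which differ by −1.15 on the log2 scale (SE 0.25, adjusted p = 0.0238, 2.22-fold lower). S100a9 averaged 4.19 ± 0.22 (SD, n = 2) in transgenic and 5.33 ± 0.52 (SD, n = 3) in wild-type macrophages, a difference of −1.36 (SE 0.33, adjusted p = 0.0375, 2.57-fold lower). These 2 were the members called lower (2.56% of all genes), and 0 were called higher (1.97%). Transgenic replicates lay below all wild-type ones for Camp, Lcn2, S100a8 and S100a9 (26% of all genes did) and above them for Mpo, Elane and Ctsg (22% of all genes did), the last 3 with differences of 0.92, 0.19 and 0.87 and adjusted p between 0.274 and 0.844.

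The S100 calls rest on few samples. The call of S100a8 is lost without wild-type tumour replicate 3 (−0.75, adjusted p = 0.403), transgenic tumour replicate 2 (−1.13, adjusted p = 0.0531) or transgenic tumour replicate 3 (−1.11, adjusted p = 0.257). That of S100a9 is lost without wild-type tumour replicate 3 (−0.69, adjusted p = 0.446), transgenic tumour replicate 3 (−0.97, adjusted p = 0.471), or wild-type control replicate 1 or 2 (−1.37 and −1.39, adjusted p = 0.0569 and 0.0512). Without the arrays of slide column 4 the call of S100a9 is lost (−1.05, adjusted p = 0.0616) and Lcn2 is called lower (−1.20, adjusted p = 0.0229). Within slide 2 the differences of S100a8 and S100a9 were −1.40 and −1.77. The only wild-type tumour array there is a repeat array of wild-type tumour replicate 3, so these values rest on that same replicate. Leaving out transgenic control replicate 1, which shares the estimate of the spread and the slide term, Camp (−1.42, adjusted p = 0.00689) and Lcn2 (−1.80, adjusted p = 0.00172) were called lower too, making 4 members lower (6.97% of all genes) and 0 higher (6.04%).

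**Figure D5:**
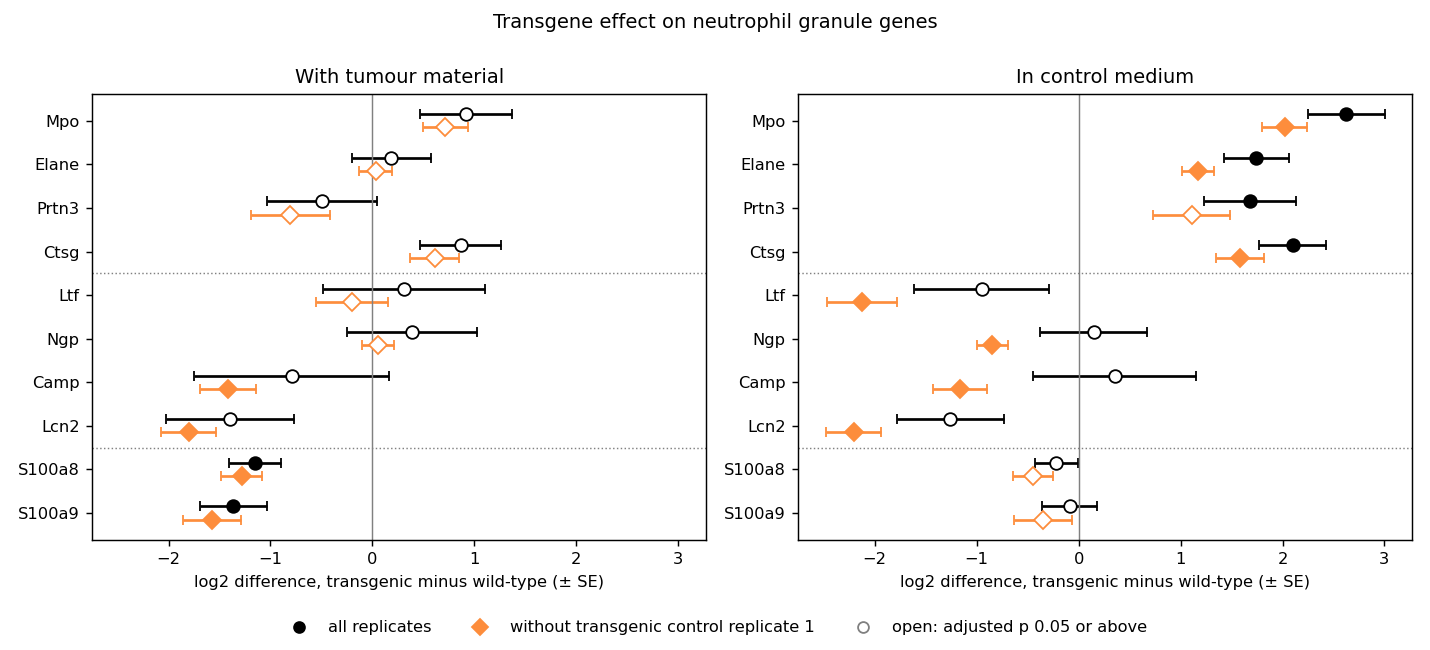
Log2 difference between transgenic and wild-type macrophages (transgenic minus wild-type, with the SE of the fit) with tumour material (left) and in control medium (right), with all replicates (black circles) and without transgenic control replicate 1 (orange diamonds); filled points are called. In control medium the primary granule genes lie above 0 in both fits, and Ngp and Camp are at 0.15 and 0.35 with all replicates and at −0.85 and −1.16 without replicate 1.

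The difference between the responses, transgenic minus wild-type, was not called for any member with all replicates (1.02% of all genes were called higher and 0.928% lower). In limma, 6 members had an unadjusted p under 0.05 (Mpo, Elane, Prtn3, Ctsg, S100a8 and S100a9), as did 12.4% of all genes, and the adjusted p of the 10 ran from 0.167 to 0.973. For those 6 the differences ran from −2.17 for Prtn3 to −0.93 for S100a8, so that the fitted change was more negative in transgenic macrophages. Elane and Prtn3 showed no called change in wild-type macrophages (−0.01 and 0.25). Without transgenic control replicate 1, 5 members were called: Mpo, Elane and Prtn3 lower (3.49% of all genes) and Ltf and Ngp higher (4.07%). Ngp was not well above background on any tumour array, so its value is not a measured difference of responses. Without transgenic control replicate 2, Mpo was called, at −2.03 (adjusted p = 0.0373). Without the arrays of slide column 4, Elane was called, at −1.11 (adjusted p = 0.0201).

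Other genes of the granules and of granulocytes moved in mixed directions. Counts of genes raised and lowered by tumour material stand against 15.1% and 10.2% of all genes in transgenic macrophages and 23.2% and 16.8% in wild-type ones. Among 15 other secondary and tertiary granule genes, tumour material raised 2 and lowered 6 in transgenic macrophages and raised 4 and lowered 6 in wild-type ones. Pglyrp1, a peptidoglycan-binding granule protein, changed by −3.33 in transgenic macrophages (SE 0.71, adjusted p = 0.00485) and −3.01 in wild-type macrophages (SE 0.54, adjusted p = 0.00097). Chil1, a chitinase-like protein, was not well above background on any wild-type tumour array. Against the limit used for Ngp it was 11.4-fold lower there than in wild-type control. Mmp8, neutrophil collagenase, rose by 4.50 in transgenic macrophages (SE 0.60, adjusted p = 0.000219) and by 2.12 in wild-type macrophages (SE 0.46, adjusted p = 0.00337). In control medium Mmp8 was the 1 gene of this list called (5.24% of all genes were called lower and 3.59% higher), with a difference of −1.97 between transgenic and wild-type macrophages (SE 0.50, adjusted p = 0.0303). With the transgenic control group reduced to replicates 2 and 3, 6 of the 15 were lower (9.56% of all genes) and 0 higher (7.55% of all genes). Their median was −0.74, where the median of all genes was −0.04.

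Of 5 tested genes that store, process or inhibit the primary granule proteases, 2 were called between the genotypes in control medium. Of all genes, 3.59% were called higher there and 5.24% lower. Serpinb1a, an inhibitor of neutrophil serine proteases, was higher in transgenic macrophages by 1.28 (SE 0.27, adjusted p = 0.0125). Ctsc, the protease that activates the granule serine proteases, was lower, with a difference of −1.69 (SE 0.20, adjusted p = 0.000372). With tumour material Serpinb1a changed by −2.37 in transgenic (adjusted p = 0.000264) and −0.79 in wild-type macrophages (adjusted p = 0.0254).

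Of 9 tested granulocyte transcription factors, tumour material raised 2 and lowered 3 in transgenic macrophages and raised 3 and lowered 3 in wild-type ones, beside the same shares of all genes. Cebpe changed by −2.56 in transgenic macrophages (SE 0.54, adjusted p = 0.00469) and −1.70 in wild-type macrophages (SE 0.42, adjusted p = 0.00656). Gfi1 was not called, at −1.63 in transgenic (adjusted p = 0.0629) and −0.52 in wild-type macrophages (adjusted p = 0.384). In control medium 0 of 9 were higher (3.59% of all genes) and 3 lower (5.24% of all genes) in transgenic macrophages, and Cebpe differed by 0.79 (SE 0.45, adjusted p = 0.298).

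Of 14 neutrophil surface and late genes, tumour material raised 5 and lowered 2 in transgenic macrophages and raised 8 and lowered 2 in wild-type ones; the share lowered is near the 10.2% of all genes in transgenic and 16.8% in wild-type macrophages. Csf3r was not called in either, at −0.11 in transgenic (adjusted p = 0.859) and 0.11 in wild-type macrophages (adjusted p = 0.792). Ly6g has no probe that matched by accession. Of 14 tested inducers and receptors of Lcn2 and the S100 proteins, 7 rose and 1 fell in transgenic macrophages and 9 rose and 1 fell in wild-type ones. Il1b, a cytokine that induces Lcn2 and that was above background on 1 of 3 transgenic control arrays, rose by 7.44 in transgenic (SE 0.39, adjusted p = 1.91e-07) and by 3.50 in wild-type macrophages (SE 0.30, adjusted p = 3.38e-06). Nfkbiz, a nuclear cofactor of NF-kB at the Lcn2 gene, rose by 1.40 in transgenic (adjusted p = 0.000107) and by 1.83 in wild-type macrophages (adjusted p = 7.86e-07).

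Markers of dividing and progenitor cells also differed between the genotypes in control medium. Of 11 proliferation genes 9 were higher in transgenic macrophages, with a median of 2.15, where 3.59% of all genes were higher. Without transgenic control replicate 1 all 11 were higher, where 7.55% of all genes were. Mki67 averaged 3.12 ± 0.22 in transgenic and 1.39 ± 0.14 in wild-type control replicates (SD, n = 3 each). Tumour material lowered all 11 in transgenic macrophages and 6 in wild-type ones. Of 8 granulocyte-monocyte progenitor genes, 2 were higher in transgenic control macrophages (3.59% of all genes) and 0 lower (5.24% of all genes). Their summed level, in which bright genes weigh most, was 12.4 to 18.6 in transgenic and 7.34 to 8.63 in wild-type control replicates. Flt3, Erg and Igll1 were above background on no array. Sox4, Ms4a3, Kit and Myb differed by 2.79, 2.03, 1.54 and 1.45, and Ctla2a, Cd34, Hoxa9 and Meis1 by −0.44, −0.39, −0.11 and −0.01. Eosinophil, basophil and mast cell markers summed to 12.6 to 36.6 in transgenic and 6.46 to 9.48 in wild-type control replicates. Ms4a2, Fcer1a and Il5ra were above background on no array. Of the tested genes of this list, Ear2, Ear1, Prg2 and Ear6 differed by 1.64, 1.47, 1.03 and 0.47. Cpa3 and Tpsb2 differed the other way, by −0.38 and −0.69. Macrophage markers summed to 2206 to 2515 in transgenic and 2705 to 3254 in wild-type control replicates. The 8 epithelial tumour cell markers were above background on no array, also with tumour material. The part of these cells in the granule gene differences was not tested.

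Tfeb itself, read by 1 probe, averaged 1.17 ± 0.29 in transgenic and 0.88 ± 0.08 in wild-type control replicates (SD, n = 3 each; adjusted p = 0.164). With tumour material it averaged −0.07 ± 0.10 (SD, n = 2) in transgenic and −0.68 ± 0.06 (SD, n = 3) in wild-type replicates, a difference of 0.69 (SE 0.16, adjusted p = 0.0264). The sources used here do not say whether this probe can detect transgene mRNA.

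Over the 11 replicates the primary granule genes had correlations with each other of 0.727 to 0.968. Those among the secondary granule genes ran from −0.738 to 0.987, with the negative values all from Lcn2. Among 10964 named genes outside the set, those most like the mean profile of the primary granule genes were Ilk (r = 0.984), Tprn, Haus3, Ccnq and Serpinb1a (r = 0.970). Ilk, Tprn, Haus3 and Ccnq varied little, with an SD of 0.26 to 0.34 (log2) over the 11 replicates, where Serpinb1a had 1.02. Without transgenic control replicate 1 Ilk ranked at 5 and Serpinb1a at 99. Most like the secondary granule mean were Dapk1 (r = 0.986), Map4k1, Mbp, Pi16 and Chil3 (r = 0.983), and without that replicate Dapk1 ranked at 2, Pi16 at 3 and Chil3 at 21. These correlations describe points that share 4 groups and 2 slides.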

How the data were processed

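One-colour Agilent arrays of 14 samples (11 replicates) were analysed. Per the labels' protocols, 200 ng of RNA was labelled with Cy3, and per the submitters' processing notes Agilent Feature Extraction 10.7.3.1 was the scanner software. The deposited signal intensity is background-subtracted and spatially detrended, per the file headers. The deposited matrix of log2 values by the authors correlated with the scanner values at 0.999 to 1.00, has a median of 2.84 in every column and served as an alternative. The number of arrays limits the precision.

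Uneven spots and population outliers (166 to 270 per array, 0 of them on a granule gene) were left out, spots of 1 probe averaged, and log2 signal was taken minus each array's 75th percentile. Of 55634 probes, 28311 were given 1 symbol through RefSeq accessions. Probes well above background on all arrays of a group were kept, with the brightest per gene, leaving 15834 genes. limma 3.58.1 (R 4.3.3) fitted 4 groups and a slide term, repeat arrays being joined by a random block for their replicate (consensus correlation 0.0718), and Benjamini-Hochberg adjustment over all genes. The consensus correlation was −0.207 without transgenic control replicate 1 and −0.179 without transgenic control replicate 2. A negative value counts repeat arrays as more than separate samples, so SEs in those fits may be too small. Repeat arrays of the 3 replicates measured on 2 arrays differed by a median of 0.229 (log2) over the 10 genes, at most 1.02. On simulated data with 15834 genes the fit was tested for recovery of known changes. Where a group was dim on every array, a fold is given against the dimmest signal well above background. Some brighter spots were not well above background, so such a fold is not a strict lower bound.

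The 10 genes and all lists were chosen with earlier results of these data known. Named genes are the 10 members, a few regulators and markers whatever their values, up to 4 called genes of each other list per contrast, and the 5 genes most like each profile; some of these are left out. Cd163, Lyz2 and other dim markers are named as those near background. The alternatives tried were quantile normalization, unscaled signal, normexp, probe filters, slides, slide column 4, repeat arrays, a replicate block, 2-group fits and leaving out each replicate. The normexp alternative used median signals, since no mean signal column was used here. The residuals of same-numbered replicates correlated at −0.216 to 0.203. With groups of 2 or 3 replicates this check cannot decide whether they pair.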

Additional observations from a re-analysis of the deposited data

Results flagged for a closer look

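The test of the difference itself (limma, adjusted over all genes) called 5 granule genes when transgenic control replicate 1 was left out. With all replicates none of the 5 was called. Without that replicate the consensus correlation of repeat arrays was −0.207, which lowers the SE of replicates with 2 arrays. SEs and adjusted p there may therefore be too small. The values are the log2 change with tumour material in transgenic minus that in wild-type macrophages. They were −1.31 for Mpo (SE 0.29, adjusted p = 0.0205), −1.14 for Elane (SE 0.21, adjusted p = 0.00781) and −1.91 for Prtn3 (SE 0.51, adjusted p = 0.0462), the primary granule genes. They were 1.92 for Ltf (SE 0.46, adjusted p = 0.0296) and 0.90 for Ngp (SE 0.21, adjusted p = 0.0232), the secondary granule genes. Ngp was not well above background on any tumour array, so neither the size of its falls nor the difference between them was measured. Prtn3 and, with tumour material, in part Ltf lay near background too. In the fit without transgenic control replicate 1, Ngp differed between the genotypes by −0.85 in control medium and by 0.06 with tumour material. In that fit 3.49% of all genes were called lower and 4.07% higher. No test for an outlying sample was applied to groups of 3 or fewer replicates; transgenic control replicate 1 is set apart by its correlations and values alone.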

How the results depend on the processing

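For the 10 genes in 5 comparisons, 1285 values under 27 alternatives were compared with the reported ones: 1197 kept direction and side of the threshold (50 of them uncalled with another sign), 60 lost the call, 24 gained one and 4 reversed. The reversed ones are the differences between transgenic and wild-type in control medium of Ngp, −0.85, and Camp, −1.16, without transgenic control replicate 1 (leaving out single replicates, the highest values were 0.75 for Ngp and 1.18 for Camp, without transgenic control replicate 2), and −0.88 and −1.07 when the slide term was dropped as well, an alternative added after seeing the data. The count of called members was 8 for tumour material in wild-type (4 in slide 2 alone; 7 to 8 leaving out single replicates) and 10 in transgenic macrophages (4 with only the 2 groups compared; 7 to 10). In control medium, 4 members differed between genotypes: 0 in slide 2 alone (where 0 of all genes were called), 2 with only the 2 groups compared, 3 to 7 leaving out single replicates, and 7 without transgenic control replicate 1 and no slide term. With tumour material, 2 differed: 0 with unscaled signal, without the probe filter, in slide 2 alone or with the first array of each replicate, 1 with repeat arrays averaged, 4 with only the 2 groups compared, 0 to 4 leaving out single replicates, and 5 without transgenic control replicate 1 and no slide term. The difference of the responses was called for 0 members, 1 without the arrays of slide column 4, 0 to 5 leaving out single replicates, and 4 without transgenic control replicate 1 and no slide term. With the replicate block, on which the pairing check cannot decide, 3 members differed in control medium and 1 with tumour material, and 8, 10 and 0 were called elsewhere. The calls lost were Prtn3 in control medium (1.60, adjusted p = 0.0779) and S100a9 with tumour material (−1.33, adjusted p = 0.0963). The causes were not tested beyond fewer samples. Leaving out a transgenic tumour replicate leaves 1, which is assumed to vary like the other groups. Prtn3 and, with tumour material, Ngp and in part Ltf lie near background, which limits their values.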
